A study of Mus musculus with 2 samples.

Results

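The promoters described here belong to genes that lack a CpG island at the 5′ end and whose promoter was nevertheless accessible in mouse thymus. Accessibility was measured by DNase-seq, in which the enzyme DNase I cuts the stretches of DNA that nucleosomes leave free. Thymus tissue came from 2 female mice aged 36 days, with 1 library per mouse, called mouse 1 and mouse 2 after the replicate numbers in the labels. Both samples carry the same donor label, which appears to name the strain. They were taken as 2 animals because the sample descriptions number the mice separately. Both animals were B6CASTF1/J, the F1 cross of C57BL/6J, the common laboratory strain, with CAST/EiJ, an inbred strain of wild origin. They were untreated as far as the labels say, there was no second group, and whole tissue was used, so a weak promoter may be open in few cells or a little in many. The promoter of a gene was taken at the 5′ end of its GENCODE M21 record on mm10. It was called CpG-poor when the observed over expected CpG ratio of the bases from 500 bp upstream to 500 bp downstream was below 0.35, and open when a peak of the more stringent deposited list lay within 500 bp of the 5′ end, and closed otherwise. Of 20,807 autosomal protein-coding genes, 7,469 were CpG-poor, and 597 of these were open in both mice and form the set described below, whose promoters are called members. Another 67 were open in mouse 1 alone, 172 in mouse 2 alone, and 6,633 in neither.

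Most vertebrate promoters lie in CpG islands, which escape DNA methylation, tend to be free of nucleosomes and serve genes used by many cell types. CpG-poor promoters are usually methylated and closed, and are opened by sequence-specific transcription factors in the tissue that uses the gene. In the thymus, where T cells mature, such genes include those of the T-cell receptor complex and of its signalling chain. The members were chosen by measured values, since the rule uses the peaks of both libraries. Peak signal, cut rates and footprints come from the same reads, so everything below is a description of these 2 libraries, with no test.

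The sequence of the strongest T-cell and leukocyte members shows what such a promoter looks like. The bases 150 to 1 upstream of the 5′ end are given for 7 of the 8 strongest members of the T-cell and leukocyte gene lists that did not overlap an annotated exon there. They are written 5′ to 3′ on the gene's strand, from the GRCm38 (mm10) reference, which carries the C57BL/6J allele only. Capitals mark bases that lay in a footprint, a short run of bases protected from DNase I, in both mice.
Lat: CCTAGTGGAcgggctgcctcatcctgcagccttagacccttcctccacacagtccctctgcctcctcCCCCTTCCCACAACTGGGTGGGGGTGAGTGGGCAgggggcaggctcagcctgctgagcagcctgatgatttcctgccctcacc
Cd8b1: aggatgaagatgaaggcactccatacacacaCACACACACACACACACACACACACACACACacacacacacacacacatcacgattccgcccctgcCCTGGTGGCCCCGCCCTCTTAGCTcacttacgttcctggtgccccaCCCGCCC
Cd3g: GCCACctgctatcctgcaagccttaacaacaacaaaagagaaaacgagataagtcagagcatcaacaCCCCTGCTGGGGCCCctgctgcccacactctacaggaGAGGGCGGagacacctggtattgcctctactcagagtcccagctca
Pstpip1: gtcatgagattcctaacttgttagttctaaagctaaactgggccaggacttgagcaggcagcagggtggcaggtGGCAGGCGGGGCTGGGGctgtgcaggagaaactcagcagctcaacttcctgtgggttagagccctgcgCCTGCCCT
Hdac7: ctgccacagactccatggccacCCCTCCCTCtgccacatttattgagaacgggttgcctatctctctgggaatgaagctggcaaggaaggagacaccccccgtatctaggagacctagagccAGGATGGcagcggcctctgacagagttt
Sla2: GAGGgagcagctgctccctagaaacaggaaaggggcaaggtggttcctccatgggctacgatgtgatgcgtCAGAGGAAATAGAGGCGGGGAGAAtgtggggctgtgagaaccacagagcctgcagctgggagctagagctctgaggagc
Arhgap45: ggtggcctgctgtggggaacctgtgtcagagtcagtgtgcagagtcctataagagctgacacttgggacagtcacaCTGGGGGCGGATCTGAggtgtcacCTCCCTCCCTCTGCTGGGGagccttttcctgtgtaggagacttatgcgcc
These stretches are chr7:126369571-126369720 (minus strand) for Lat, the membrane adaptor that links the T-cell receptor to its downstream enzymes, and chr6:71322638-71322787 (plus) for Cd8b1, the CD8 beta chain. They are chr9:44980432-44980581 (minus) for Cd3g, the CD3 gamma chain, and chr9:56089812-56089961 (plus) for Pstpip1, an adaptor of the actin cytoskeleton. For the class IIa histone deacetylase gene Hdac7 the stretch is chr15:97844503-97844652 (minus), for the adaptor gene Sla2 it is chr2:156887193-156887342 (minus), and for Arhgap45, a GTPase-activating protein gene, it is chr10:80016503-80016652 (plus). The eighth, Tbc1d10c, held no base in a footprint of both mice in its stretch, and its strongest peak was centred 193.5 bp downstream of the 5′ end in both mice. The 7 stretches held 1 CpG at Lat, 5 at Cd8b1, 3 at Hdac7 and Sla2, and 2 at each of the others. A GC box (GGGCGG, either strand), the site of SP factors, lay under a shared footprint at Cd8b1, 43 and 6 bp upstream, at Cd3g, 44 bp upstream, and at Arhgap45, 70 bp upstream. At Pstpip1 and Cd3g an E-box (CAGGTG, either strand), starting 81 and 148 bp upstream, was covered only in part: the footprint took in its edge and not the whole word. Capital letters at Lat cover the Ikaros-type word TGGGAA on the reverse strand, 79 bp upstream. At Cd8b1 the longest shared footprint run lies in a CA repeat. A match describes letters only and does not name the bound protein.

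Across all genes the share of open promoters was higher at higher CpG ratios, up to a ratio of 1, and the members are the lower end of that curve. Of all autosomal protein-coding genes, 51.0% were open in both mice. The share was 7.99% for CpG-poor promoters, 49.4% for ratios of 0.35 to 0.6 and 84.2% at 0.6 and above. By mouse, 8.89% of CpG-poor promoters were open in mouse 1 and 10.3% in mouse 2, a mean of 9.59% ± 0.994 (SD, n = 2). Within the CpG-poor class the share climbed from 0.599% at ratios below 0.05 to 22.1% between 0.3 and 0.35, where 162 members lay. Of the CpG-poor promoters open in either mouse, 71.4% were open in both, against 80.9% and 91.5% in the 2 richer classes.

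**Figure D1:**
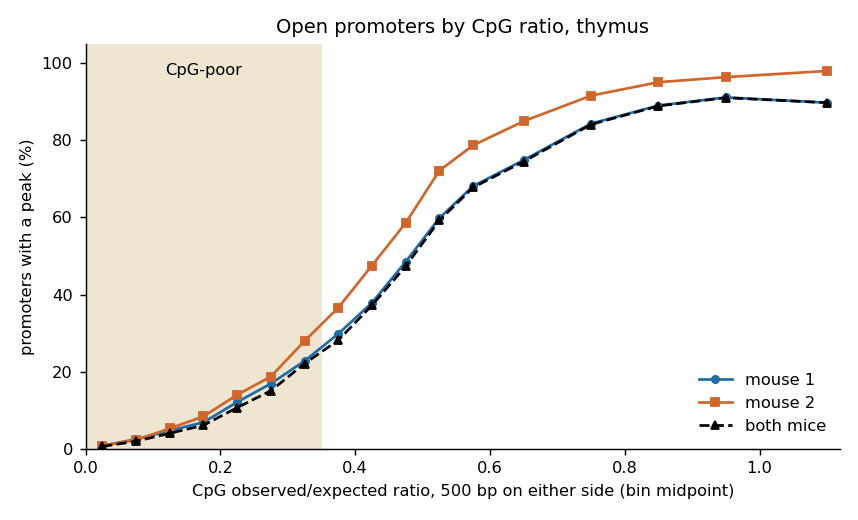
Share of promoters with a peak within 500 bp (y axis, %) by CpG observed/expected ratio (x axis, bin midpoints, the last bin holding all ratios of 1 and above), for mouse 1, mouse 2 and both mice together. The shaded range is CpG-poor, where the share open in both mice goes from 0.599% to 22.1%; it is 91.1% for ratios of 0.9 to 1.

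The cut at 0.35 falls on a continuous slope. Just below it lay Mttp, a lipid transfer protein gene of liver and gut (ratio 0.3495, signal 2.34 in mouse 1 and 2.05 in mouse 2), the cytokine gene Il6 (0.349, 0.223 and 0.5995) and the hormone gene Stc1 (0.349, 0.574 and 0.821). Just above it, and therefore left out, were Syn3 (2.42 and 7.56), Epsti1 (1.00 and 1.10) and the chromatin remodeller gene Chd2 (2.34 and 4.19). The least CpG of any member was at 4931408C20Rik, with none in the window, followed by the olfactory receptor gene Olfr525 (ratio 0.0204) and Cd226, an adhesion receptor of T and NK cells (0.0415). These 3 had signals of 0.517, 1.26 and 1.26 in mouse 1 and 0.509, 0.877 and 1.36 in mouse 2.

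The members had more GC than the CpG-poor promoters that stayed closed. Their median GC content over the 1 kb window was 51.2%, against 44.9% for the 6,633 closed in both mice and 59.7% for the 10,009 other open promoters. The share of CpG-poor promoters open in both mice was 0.658% below 40% GC, 4.02% at 40 to 45%, 9.20% at 45 to 50%, 14.8% at 50 to 55% and 19.3% at 55% and above. Repeats marked in the reference covered a median of 12.1% of the window of a member, 14.2% of that of a closed CpG-poor promoter and 6.99% of that of another open promoter. The 5′ end itself lay in a repeat for 73 members (12.2%), which is close to the 12.5% of closed CpG-poor promoters. Members were spread over all 19 autosomes, from 4.81% of CpG-poor promoters on chromosome 14 to 12.2% on chromosomes 1 and 11.

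T-cell genes made up a visible fraction of the members. Gene lists were written for the cell types of the thymus and chosen with earlier results of these data known, so their counts describe the members and support nothing further. They are read against the 7.99% of all CpG-poor promoters that were open in both mice. In the 6 T-cell and leukocyte lists (T-cell receptor complex and surface, its signalling, transcription factors, recombination, GIMAP GTPases, and leukocyte actin and adhesion), 82 of 103 CpG-poor promoters (79.6%) were open in both mice. In the 6 lists for B cells, myeloid cells, erythroid and mast cells, thymic epithelium, endothelium and mesenchyme, and liver, muscle and neuron, it was 6 of 119 (5.04%). Of the 597 members, 139 were in 1 of the 16 lists and 458 in none.

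**Figure D2:**
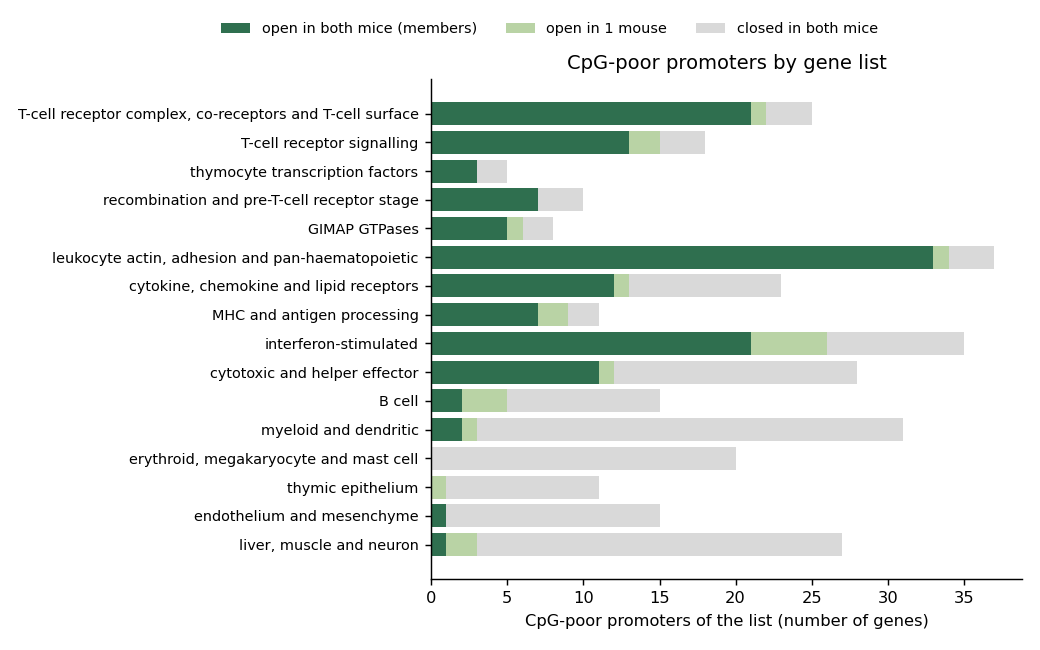
Number of CpG-poor promoters (x axis) in each of 16 gene lists (y axis), divided into those open in both mice, in 1 mouse and in neither. The T-cell receptor list shows 21 of 25 open in both mice, and the list of erythroid, megakaryocyte and mast cell genes 0 of 20.

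The T-cell receptor complex and its co-receptors were open nearly throughout. Of the 25 CpG-poor genes in that list, 21 were open in both mice, with median signals of 4.37 (mouse 1) and 6.03 (mouse 2). The signal is the deposited signal value of the strongest peak within 500 bp. The labels and deposited text do not say how it was scaled, so a difference between the mice in signal may hold a difference of scale. The CD3 subunits pass the receptor's signal into the cell: Cd3g reached 10.8 and 19.3 (mouse 1 and mouse 2), and Cd3e 7.001 and 9.11. Cd3d, which lies next to Cd3g in the opposite orientation, went the other way between the animals, with 5.14 and 2.74. The zeta chain gene Cd247 had 6.00 and 6.42. Of the co-receptors, Cd8b1 had 12.1 and 21.1 at a ratio of 0.294, while Cd4 was weaker, with 2.44 and 2.70, and had no footprint shared by both mice. Themis, a regulator of thymocyte selection, had 11.0 and 9.62, the adaptor gene Sit1 10.1 and 8.43, and Cd5, a brake on receptor signalling, 6.94 and 6.82. Ptcra, the pre-T-cell receptor alpha chain, had 4.29 and 7.33. Ly6d was open in mouse 2 alone (1.27). Cd28, the main co-stimulatory receptor, and Cd160 had no peak of either deposited list, and Trat1 had one of the longer, less stringent list alone, in both mice. Cd28 had another annotated start open in both mice, and so had Cd160.

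In the signalling list 13 of 18 CpG-poor promoters were open in both mice. The signal of Lat was 12.5 (mouse 1) and 25.5 (mouse 2), and that of Ptpn7, a tyrosine phosphatase of blood cells, 10.4 and 27.2. The kinase gene Lck, which phosphorylates the CD3 chains, had 8.93 and 14.7, and Zap70, the kinase recruited to them, 7.12 and 6.27. The adaptor gene Sh2d2a (7.22 and 6.13) and Rasal3, a Ras GTPase-activating protein gene (5.14 and 8.41), complete the 6 strongest. Which mouse was higher thus differed among the 6. Ptprc, which encodes CD45, was open in mouse 1 alone (2.35), and its partner gene Ptprcap in mouse 2 alone (1.204). Ptprcap had another annotated start open in both mice, and Ptprc had none. Bcl10, Fyb and Fyn were closed at the 5′ end of the record in both mice, and each had another annotated start open in both. Fyb had a peak of the longer list at the 5′ end in both mice, and Bcl10 and Fyn had none.

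Few transcription factors of the thymocyte list were CpG-poor at all. Of its 38 matched genes, 33 had a ratio of 0.35 or more, and 28 of those were open. Of the 5 CpG-poor ones, 3 were open in both mice, among them Runx1 (6.52 and 8.46) and Batf (2.47 and 2.85). Ets1 and the myeloid and B-cell factor gene Spi1 were closed at their 5′ ends, where Ets1 had a peak of the longer list in both mice and Spi1 had none. In both mice 4 other annotated starts of Ets1 were open and none of Spi1.

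In the list for V(D)J recombination and early thymocytes, 7 of 10 CpG-poor genes were open in both mice. Both recombinase genes were among them, Rag1 with 10.9 in mouse 1 and 10.04 in mouse 2 and Rag2 with 7.38 and 8.49. Dntt, the enzyme that adds bases at the joints, had 2.20 and 2.04. Hdac7 had 11.1 and 16.7, Endou 5.71 and 5.92, and the adhesion receptor gene Cd44 1.28 and 1.72. Il7r, the interleukin-7 receptor gene, lies outside the 6 strongest of its list and was added after its values were seen: it had 1.53 and 0.670. The 2 recombinase genes thus differed little between mice, and the early-stage gene Il7r was at the weak end. Il2ra, Notch1 and Xrcc6 were closed at the 5′ end, and Il2ra had no other open start. Below the stringent limit, Il2ra had a peak of the longer list in both mice, 2 shared footprints and significant cutting over 238 and 194 bp. Notch1 had a peak of the longer list in mouse 2 alone and Xrcc6 had none. Over these first 4 lists, 11 CpG-poor genes were closed in both mice, and 8 of the 11 had another annotated start open in both. Of all CpG-poor promoters closed in both mice, 607 of 6,633 (9.15%) had one, and of the members 440 of 597 (73.7%). These starts were counted at any distance from the 5′ end. A start close to that of a member can thus be open by the same peak, while one close to a closed 5′ end is mostly closed by the rule. The gap between these shares is therefore in part fixed by construction.

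Genes shared by all leukocytes were the most completely open list, with 33 of 37 CpG-poor promoters open in both mice. Tbc1d10c, an inhibitor of calcineurin and Ras, had 13.2 in mouse 1 and 21.8 in mouse 2. Pstpip1 had 9.60 and 20.6, Sla2 11.98 and 14.7 and Arhgap45 10.9 and 15.1. Itgb2, the common beta chain of leukocyte integrins, had 9.57 and 11.5, and Selplg, the selectin ligand PSGL-1, 9.95 and 10.8. All 6 were higher in mouse 2, as were 78.4% of all members. Of the GIMAP GTPases, survival factors of lymphocytes encoded in a cluster on chromosome 6, 5 of 8 were open in both mice. In mouse 1 their signals ran from 2.52 at Gimap5 to 8.05 at Gimap7, and in mouse 2 from 3.69 at Gimap5 to 13.7 at Gimap8. Gimap6 was open in mouse 1 alone and Gimap3 and Gimap4 in neither, but Gimap3 had a peak of the longer list in both mice and 2 shared footprints.

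Receptor, interferon and antigen presentation genes were open in part. In the list of cytokine, chemokine and lipid receptors and their ligands 12 of 23 CpG-poor promoters were open in both mice, led by the lymphotoxin gene Ltb (9.76 and 18.1), the homing receptor gene Ccr7 (8.55 and 8.24) and S1pr4 (6.76 and 10.5). Of 35 CpG-poor interferon-stimulated genes 21 were open, led by Irf9 (6.71 and 16.9), a subunit of the interferon-activated factor ISGF3, and by Rsad2 (6.70 and 11.1) and Trim21 (7.27 and 10.2). The neighbouring GTPase genes Igtp and Irgm2 start 62 bp apart and share 1 peak (5.07 and 10.1). Antigen presentation had 7 of 11, among them 4 MHC class II genes: H2-Ab1 with 1.54 and 5.42, H2-Eb1 with 2.51 and 5.14, H2-Aa with 1.90 and 3.43, and H2-Oa with 1.87 and 3.48. Class II genes are used mainly by antigen-presenting cells. These 4 were higher in mouse 2, as most members were. The class II gene H2-Ob was open in mouse 1 alone (1.80) and had a peak of the longer list in mouse 2, and H2-DMb1 was closed in both. The class Ib gene H2-T22 was the strongest of the list (10.2 and 7.06), but near-identical copies in its cluster make the assignment of reads uncertain. Of 28 CpG-poor cytotoxic and helper effector genes, 11 were open, with Prf1, the perforin gene, at 4.58 and 6.23, Icos at 4.27 and 2.91 and Il2 at 0.421 and 0.413.

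CpG-poor genes of the other cell types in the organ were mostly closed. Of 15 CpG-poor B-cell genes the co-activator gene Pou2af1 (5.30 and 5.36) and the kinase gene Blk (1.39 and 2.40) were open in both mice, and Ms4a1 and Cd79a were among those open in neither. Bank1, Blnk and Cd79b were open in mouse 2 alone, and each had a peak of the longer list in mouse 1. Of 31 CpG-poor myeloid and dendritic genes, Itgam (1.91 and 1.41) and Cd68 (0.804 and 0.851) were open in both. No CpG-poor erythroid, megakaryocyte or mast cell gene (0 of 20) and no CpG-poor thymic epithelial gene (0 of 11) was. Among 15 CpG-poor endothelial and mesenchymal genes Pecam1 alone was open, with 5.44 and 3.12, and it shared its peak with Milr1 on the opposite strand. Gfap was the 1 open gene of the liver, muscle and neuron list (0.562 and 1.14). As a check of the labelled tissue, 12 of 12 T-lineage marker promoters were open in both mice at any CpG ratio, against 1 of 6 for B cells, 1 of 6 for myeloid cells, 2 of 6 for epithelium, 2 of 6 for endothelium and mesenchyme and 1 of 2 autosomal erythroid markers.

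Several large CpG-poor gene families were closed almost throughout. The olfactory receptors made up 1,119 of the 7,469 CpG-poor promoters and only Olfr1342 and Olfr525 were open in both mice. No CpG-poor vomeronasal receptor (0 of 325), kallikrein (0 of 25), keratin or keratin-associated gene (0 of 85) or defensin (0 of 63) was. The cytochromes P450 (4 of 82, 4.88%) and the C-type lectins (2 of 28, 7.14%) were nearer to the 7.99% of all CpG-poor promoters. Above that share, again among CpG-poor promoters, were 6 of 9 guanylate-binding protein genes, 4 of 8 Schlafen genes, 24 of 61 genes named as CD antigens and 14 of 68 zinc finger protein genes. Gbp4, Gbp8 and Gbp9 are counted at 1 shared peak, their records starting within 47 bp.

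The strongest members were only in part T-cell genes. Ranked by the mean log2 signal of both mice, the first 12 were Madd, AI467606, Tldc1, Arhgap30, Lat, Spo11, Tbc1d10c, Ptpn7, Gm20449, Cd8b1, Smyd1 and Pold4. Madd, a Rab exchange factor gene, had 19.4 in mouse 1 and 39.9 in mouse 2, but that peak was centred 486.5 and 496.5 bp downstream of the 5′ end, and 10 other annotated starts of Madd had a ratio of 0.35 or more. AI467606 had 18.2 and 23.3, and Tldc1 12.8 and 31.1. Arhgap30, a GTPase-activating protein gene, had 16.9 and 20.7. Spo11, the enzyme that makes the DNA breaks of meiosis, had 14.3 and 20.7, with the peak over its 5′ end. Smyd1, a muscle methyltransferase gene, is counted at the peak of Cd8b1 (12.1 and 21.1), 555 bp away in the opposite orientation. Pold4, a DNA polymerase delta subunit gene, had 10.7 and 21.3. In all 12 the signal was higher in mouse 2.

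Next to other open promoters, members were weak. The median over the members was 2.04 (mouse 1) and 2.91 (mouse 2), with a mean of 2.48 ± 0.615 (SD, n = 2). Open promoters with ratios of 0.35 to 0.6 had medians of 2.93 and 6.38, and those at 0.6 and above 5.82 and 15.2. Of the members, 54.9% in mouse 1 and 72.0% in mouse 2 were in the weakest 25% of all open promoters, and 3 and 1 were in the strongest 10%. Their signals were still many steps high. Every signal was a whole multiple of 1 step, 0.00638 in mouse 1 and 0.00504 in mouse 2, and the median member held 320 and 578 steps. What 1 step stands for is not given in the labels or deposited text. Strength varied with the kind of gene. The 82 members of the T-cell and leukocyte lists had medians of 5.00 and 6.09, the 57 in another list 2.17 and 2.57, and the 458 in no list 1.74 and 2.68.

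**Figure D3:**
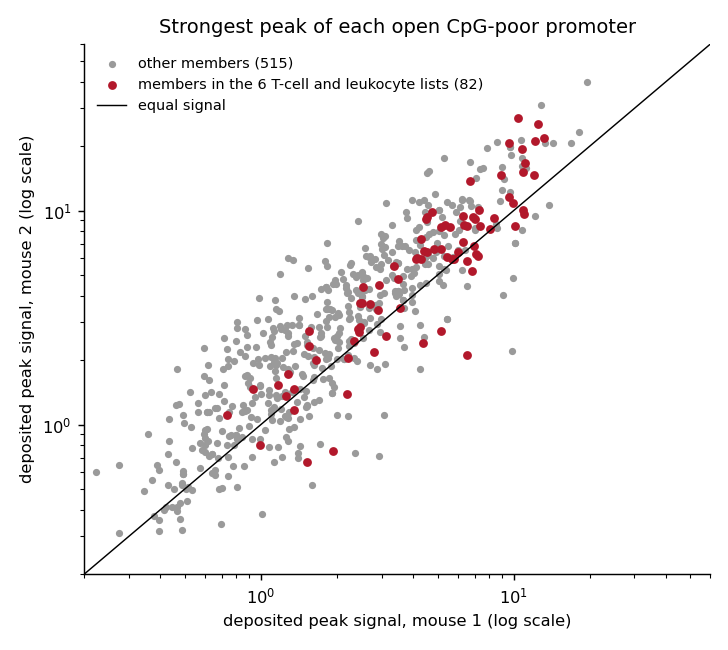
Deposited signal of the strongest peak within 500 bp of each of the 597 members in mouse 1 (x axis) and mouse 2 (y axis), both on a log scale in the deposited unit, with members of the 6 T-cell and leukocyte lists in red. Most points lie above the line of equal signal (468 of 597), and the red points sit towards the upper right.

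Mouse 2 gave the higher signal at most members, by less than at other open promoters. The log2 ratio of mouse 2 to mouse 1 had a median of 0.49 over the members and was above 0 at 468 of 597 (78.4%). For the other open promoters the median was 1.30, and 98.4% were higher in mouse 2. The ratio moved with GC content in both sets. From below 40% GC to 55% and above, the members' median went through -0.36, -0.05, 0.24, 0.61 and 0.91, and that of other open promoters through 0.00, 0.47, 0.84, 1.09 and 1.36. Within each GC range the members had the lower ratio. The scale of the deposited signal can shift all ratios of both sets alike. The part of GC content, library depth or preparation in the difference between the sets was not tested, and with 1 library per mouse the animal and its library cannot be told apart.

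**Figure D4:**
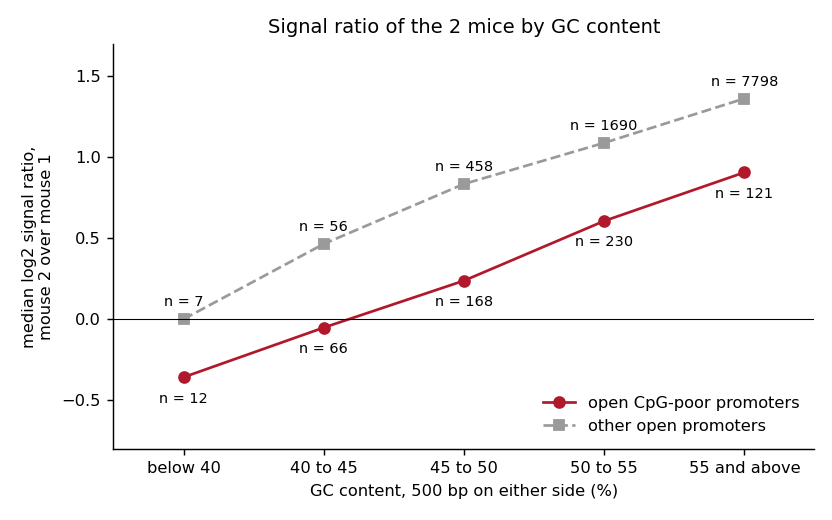
Median log2 ratio of peak signal, mouse 2 over mouse 1 (y axis), in 5 ranges of GC content (x axis, %), for the 597 open CpG-poor promoters and the 10,009 other open promoters, with the number of promoters beside each point. Both lines rise with GC content, and the CpG-poor line lies below the other in all 5 ranges.

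The animals ranked the members alike. Across the 597 members, which share the 2 libraries and are not independent replicates, log2 signals had a Pearson correlation of 0.881 and a Spearman correlation of 0.881. The strongest peaks of the 2 mice overlapped at 564 members (94.5%), and their median log2 ratio was 0.49. The largest ratios were at Gm3336 (1.28 in mouse 1 and 6.02 in mouse 2), Gramd1a (1.33 and 5.87), Srcin1 (1.19 and 5.04) and Fgfrl1 (0.983 and 3.89). At the other end lay Plin3, a lipid droplet protein gene (9.80 and 2.21), Tmem120b (2.94 and 0.710), Naif1 (2.36 and 0.736) and Txk, a T-cell tyrosine kinase gene (6.53 and 2.12). Plin3, Tmem120b, Naif1 and Gramd1a had strongest peaks that did not overlap between the mice, so their ratio compares different sites. At Txk, Fgfrl1, Srcin1 and Gm3336 the peaks overlapped.

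Peaks of open CpG-poor promoters were centred near the 5′ end, and a smaller share of members than of other open promoters had a peak over it. A peak lay over the 5′ end itself at 65.0% of the members in mouse 1 and 61.6% in mouse 2 (63.3% ± 2.37, SD, n = 2), and at 56.6% in both. For the other open promoters it was 75.5% and 77.8%. Peak coverage, taken every 20 bp, was highest 40 and 20 bp upstream in mouse 1 (65.7% at each) and 20 bp upstream in mouse 2 (63.3%). At 500 bp downstream it was 17.1% in each, and 500 bp upstream 9.88% and 8.88%. For the other open promoters it was 25.4% and 22.6% at 500 bp downstream, and 11.8% and 8.92% at 500 bp upstream. The median peak was 237 bp wide in mouse 1 and 200 bp in mouse 2. A second peak lay within 500 bp at 25.5% of the members in each mouse, against 42.3% and 40.04% of other open promoters.

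**Figure D5:**
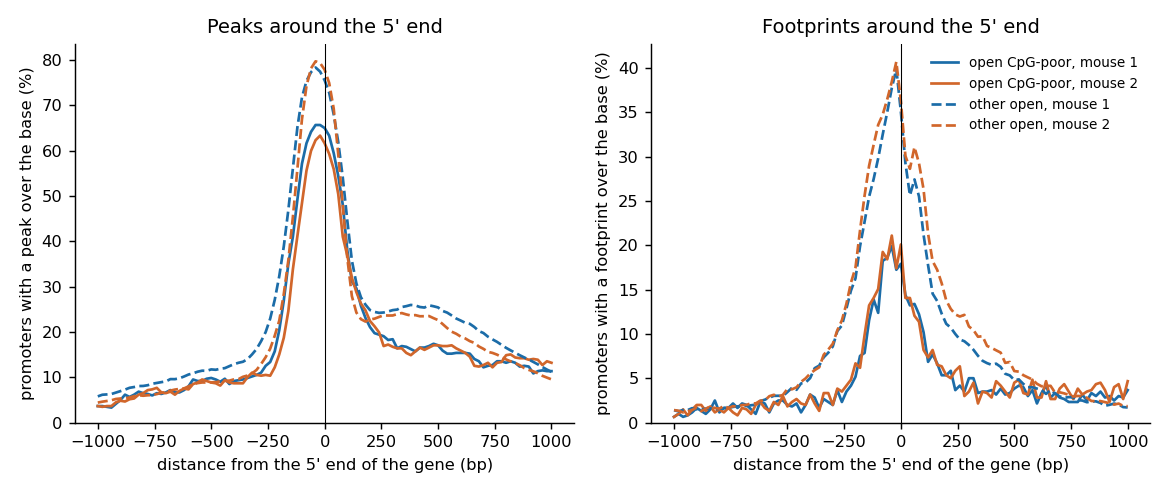
Share of promoters with a peak (left, y axis, %) and with a footprint (right, y axis, %) over each position from 1000 bp upstream to 1000 bp downstream of the 5′ end (x axis, bp), for the members (solid) and the other open promoters (dashed) in each mouse. Footprint coverage of the members peaks at 19.9% and 21.1%, and that of the other open promoters at 39.9% and 40.7%.

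Footprints were found at most members, in smaller number than elsewhere. At least 1 lay within 500 bp at 96.3% of the members in mouse 1 and 97.8% in mouse 2, and at 537 of 597 (89.9%) a footprint of mouse 1 overlapped one of mouse 2. Of the closed CpG-poor promoters 0.452% had such a shared footprint. The median number of shared footprints was 3 per member, against 5 for open promoters with ratios of 0.35 to 0.6 and 7 at 0.6 and above. The most were at Hdac7 (13) and at Unc13d, a gene of granule release (12), followed by AI467606, Ptpn7, Sit1 and Gimap9 with 11 each. Rag1, with a signal above 10 in both mice, had none. Significantly cut bases, those with a deposited FDR below 0.05, filled a median of 593 of 1001 bp around a member in mouse 1 and 588 in mouse 2, against 960 and 900 around other open promoters. How far fewer footprints go with lower signal was not tested.

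Short words known as transcription factor sites were counted from 250 bp upstream to 50 bp downstream, on either strand. A match describes the sequence and is no binding site. The ETS word CAGGAAG was in 29.1% of the members (174 of 597), 14.5% of the closed CpG-poor promoters, 11.0% of the other open promoters and 12.4% of all. Written backwards, with the same base composition, it was in 4.69%, 4.45%, 4.96% and 4.67%. Since members have more GC, the shares were also taken within 1 GC range: at 45 to 50% GC it was in 29.2% of the members and 19.1% of closed CpG-poor promoters, and at 50 to 55% in 28.3% and 19.95%. The longer ETS word GAGGAAGT, preferred by PU.1, differs from the first in the base before AGGAAG, so that no stretch counts for both. It was in 9.55% of the members and 4.48% of closed CpG-poor promoters, and its backward form in 3.69% and 2.14%. ETS factors include Ets1 and Fli1 of T cells. Among the members of the T-cell and leukocyte lists 32 of 82 (39.0%) held CAGGAAG, Lat, Lck, Ptpn7, Cd3e and Rag1 among them, and among those in no list 26.6%.

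The RUNX word TGTGGTT, the site of the factors that direct CD4 and CD8 choice, was in 12.2% of the members, 7.84% of closed CpG-poor promoters, 3.50% of other open ones and 5.20% of all. Backwards it was in 3.69% of the members and 3.86% of closed CpG-poor promoters. At 45 to 50% GC the shares were 16.7% and 8.52%, and at 50 to 55% they were 10.4% and 5.89%. In the narrower window of 100 bp on either side of the 5′ end CAGGAAG was in 23.5% of the members and 10.6% of closed CpG-poor promoters, and TGTGGTT in 7.20% and 5.31%, so the gap for RUNX was smaller there. ETS and RUNX words stood together in 3.02% of the members and in 1.27% of closed CpG-poor promoters. The NF-kB word GGGANTTCC was rarer, in 3.69% of the members (22 of 597) and 1.15% of closed CpG-poor promoters. Backwards it was in 1.68% and 1.37%. At 45 to 50% GC its shares were 2.38% and 1.199%, and at 50 to 55% they were 3.48% and 1.72%. The E-box, GATA and AP-1 words were less distinct. The E-box CAGCTG was in 24.1% of the members and 17.1% of closed CpG-poor promoters. At 45 to 50% GC it was in 25.6% and 19.9%, but at 50 to 55% in 23.04% and 25.7%. CAGGTG was in 26.5% and 23.9%, at 45 to 50% GC in 21.4% and 26.3%, and at 50 to 55% in 30% and 29.2%. The GATA word AGATAA was in 11.1% of the members and 17.5% of closed CpG-poor promoters. The order turned at 45 to 50% GC (14.9% and 13.4%) but not at 50 to 55% (10% and 12.9%). The AP-1 word TGANTCA was in 6.87% and 11.8%, at 45 to 50% GC in 6.55% and 10.7%, and at 50 to 55% in 8.26% and 9.16%.

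Of the core promoter words, the GC box and the TATA box had shares in the members between those of closed CpG-poor and other open promoters. The GC box GGGCGG was in 26.1% of the members, 7.04% of closed CpG-poor promoters, 67.9% of other open promoters and 43.7% of all. It holds a CpG, so its share depends on the CpG ratio that the rule used. Backwards, as GGCGGG, it was about as frequent, in 24.8%, 7.54%, 67.0% and 43.4%. A TATA box (TATAAA, sense strand, starting 40 to 20 bp upstream) was in 1.34% of the members (8 of 597), 5.61% of closed CpG-poor promoters, 0.669% of other open ones and 2.48% of all. The CCAAT box (CCAAT) was in 31.3%, 40.3%, 39.6% and 38.6%, but with 100 bp on either side the shares lay closer, at 26.0%, 28.7%, 29.9% and 28.1%. At 45 to 50% GC it was in 37.5% of the members and 40.2% of closed CpG-poor promoters, and at 50 to 55% in 28.3% and 34.8%. The interferon response element was in 6.37% of the members and 4.40% of closed CpG-poor promoters. At 45 to 50% GC its shares were 7.74% and 3.72%, and at 50 to 55% they were 7.39% and 3.76%. Of the 21 interferon-stimulated members, 9 held it. In 6 of these 9 the match was overlapped by a footprint of each mouse: Gbp2, Ifi27, Rsad2, Slfn8, Trim21 and Zbp1. In the T-cell and leukocyte lists 1 of 82 members held it, Parvg.

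Members with a match overlapped by a footprint of each mouse, by at least 1 bp, were a minority of those holding the word, except for the GC box. Of the 156 members with a GC box, 99 had such a match (63.5%), against 78.6% of the other open promoters that held it. For CAGGAAG it was 22 of 174 members (12.6%), among them Lat, Cd6 and Cd226, against 22.4% of the other open promoters with the word. For the RUNX word it was 12 of 73 (16.4%), among them Lck, Cd96 and Btla, against 17.4%. Some other words had higher shares among the members: the CCAAT box 42 of 187 (22.5%), against 35.7%, and the interferon response element 11 of 38 (28.9%), against 22.7%. Over all promoters of each set, with the word or without, an ETS or RUNX word so overlapped was found at 5.53% of the members and 3.06% of the other open promoters.

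The 5′ end of a gene record need not be the start most used. Of the 597 members, 420 had every annotated start below the ratio of 0.35, and 177 had a richer start of their own somewhere in the gene. Of the CpG-poor genes poor at every start, 6.77% (420 of 6,202) were open in both mice, and of those with a richer start 14.0% (177 of 1,267). Median signals were 1.94 and 2.77 (mouse 1 and mouse 2) for the 420, and 2.16 and 3.31 for the 177. Of the T-cell and leukocyte list members, 66 were among the 420. Another gene began within 1000 bp at 102 members (17.1%), on the opposite strand at 77, against 36.9% and 33.8% of other open promoters. Because neighbours can share a peak, the 597 members rest on 580 distinct strongest peaks, with 33 members in 16 groups that share one. Examples are Tmc6 and Tmc8 (9.62 and 19.8), Rag1 and B230118H07Rik, and Gimap7 and its read-through record Gm28053. Further peaks within the gene body and 10 kb around it, 2 or more in each mouse, were present at 422 members (70.7%) and at 66.2% of other open promoters.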

How the data were processed

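The thymus DNase-seq library of each mouse came with 2 peak lists, the FDR of cut rates along runs of bases, and footprints, all on mm10 per the labels. According to the deposited text files the authors made them library by library from filtered alignments. Not given in the sources used here are the aligner, both callers and the thresholds they applied. The signal column deposited by the authors holds 1 value per peak, and neither the labels nor the deposited text says how it was scaled. All values were whole multiples of 1 step per library (100% within 0.1 steps). The weakest member held 35 steps in mouse 1 and 62 in mouse 2. The p-value deposited by the authors for cut rates is an FDR that reaches at most 0.05. Footprints carry 1 constant score in the deposited files, and their positions alone were used.

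The shorter peak list of each library (59,484 and 72,913 peaks) defined open promoters. The longer lists held 93,107 and 117,361. Promoters are the 5′ ends of GENCODE M21 gene records on autosomes, with sequence and repeat masking from the GRCm38 reference. The CpG ratio is the CpG count times the window length over the product of the C and G counts. Where several peaks lay within 500 bp the strongest was used. A footprint counted as shared when one of mouse 1 overlapped one of mouse 2 by at least 1 bp. Of 492 list genes, 479 matched an autosomal protein-coding gene.

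The members, the gene lists and the motifs were chosen with earlier results of these data known. Named genes are the 12 strongest members, up to 6 of each list by mean log2 signal, the 4 highest and 4 lowest ratios of the mice, those beside the 0.35 cut and those with the least CpG, the CpG-poor genes of the first 4 lists not open in both mice, and the 4 with most shared footprints. Other names were added after their values were seen. Sequences on chromosome 18 were left out, and the values of some genes that entered the counts are not reported here. No test was made, since the rule used both libraries and there is 1 group. The calculations (Python 3.11.15, numpy 2.4.6, pandas 2.3.3) passed 4 of 4 checks on simulated data.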

Additional observations from a re-analysis of the deposited data

How the results depend on the processing

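Of 91 alternative values of the main results, 63 moved by less than the spread between the mice (counts: less than 1.5 times), 28 moved by more, and none changed direction. The 63 include every alternative of the median log2 ratio of the mice. There the spread (0.362) is itself the difference between the mice, so this comparison cannot show that the ratio is stable. The ratio ran from 0.408 with the longer list to 0.6002 with the CpG ratio over 1000 bp on either side. The number of members (597) was 378 with the stronger 50% of peaks and 664 to 769 when 1 mouse was left out. The share of CpG-poor promoters open in both mice (7.99%) was 6.46% and 9.64% with ratio limits of 0.30 and 0.40, 9.78% with the ratio over 1000 bp on either side, 6.83% and 10.5% with peaks within 200 and 1000 bp, 10.6% with the longer list, 5.06% with the stronger 50% of peaks, 6.77% with only genes poor at every start (chosen after seeing the data) and 8.89% to 10.3% without 1 mouse. The median signal (2.48) was 1.67 with the longer list, 4.25 with the stronger 50% of peaks and 1.82 to 2.04 without 1 mouse. The share with a shared footprint (89.9%) was 92.1% with the ratio over 1000 bp on either side, 92.2% and 71.6% with peaks within 200 and 1000 bp, 78.1% with the longer list, 96.8% with the stronger 50% of peaks, 91.4% with only genes poor at every start, and 95.2% to 96.0% in single mice. The share with a peak over the 5′ end (56.6%) was 49.2% and 61.5% with the ratio over 250 and 1000 bp on either side, 66.3% and 43.3% with peaks within 200 and 1000 bp, 63.5% with the stronger 50% of peaks, 60.5% with only genes poor at every start and 58.3% to 61.4% in single mice. The cause of these moves was not tested, except that stricter or looser limits change which promoters are counted. The log2 ratio of the mice could not be computed without 1 of them. No paired analysis was possible because there is 1 group.

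With 100 bp on either side CAGGAAG was in 23.5% of the members and 10.6% of closed CpG-poor promoters, and TGTGGTT in 7.20% and 5.31%. The demand for a footprint can only keep or lower a share, by construction. Promoters open in 1 mouse alone were weak, with median signals of 0.664 in mouse 1 and 0.693 in mouse 2, against 2.04 and 2.91 for the members. The part of depth in this was not tested.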

Other observations

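Some CpG-poor promoters outside the 597 were open in 1 mouse alone in spite of a strong peak or wide cutting there. Ckm, the muscle creatine kinase gene, had a peak of signal 5.74 in mouse 1, above the median of the members, and no peak of either list within 500 bp in mouse 2. Significant cutting covered 251 bp of its window in mouse 1 and 149 bp in mouse 2. Ptprcap had a weaker peak in mouse 2, of signal 1.204, below the median of the members. Its significant cutting covered 840 bp in mouse 2 and none in mouse 1. Another annotated start of Ptprcap was open in both mice. Both genes were chosen after their values were seen.

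Genes of helper and cytotoxic effector cells, which mature T cells use after leaving the thymus, were open in part. Klrd1, Pdcd1, Lag3, Tigit and Icos, which encode surface receptors, were open in both mice at the 5′ end, while the cytokine genes Il4, Il5, Il10, Il13 and Il21 and the granzyme genes Gzmb and Gzmk were closed in both. The signals of these 5 receptors ran from 0.696 (Klrd1) to 4.27 (Icos) in mouse 1 and from 0.343 (Klrd1) to 4.28 (Lag3) in mouse 2. Gzma (2.21 and 1.09) and Il2 (0.421 and 0.413) were open. Other receptor genes of the same list, among them Havcr2, Klrc1 and Klrk1, were closed, though Klrk1 had a peak of the longer list in mouse 1. These genes were grouped after their values were seen.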
